A study of Mus musculus with 18 samples.

Results

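The libraries described here follow polycystic liver disease (PLD) in mice over time, from 1 to 2 months after tamoxifen, within the PLD genotype. They are 6 of the 18 libraries of the series: the 3 titled PLD at 1 month and the 3 titled PLD at 2 months, taken by their titles, with every gene of the count files. The WT libraries at the same times, 3 a group, served to show time without the disease genotype; PLD libraries at 3 months given CPTH6 or ML324 were used in 1 alternative fit only. All 12 untreated libraries share tamoxifen induction, which the labels state for WT and PLD mice at both times, and no other treatment is given for them. The genotype is labelled only as PLD or WT, and the inactivated gene, the allele, the promoter of a recombinase, the strain and the age of the mice are not given in the sources used here. The RNA is polyA RNA of primary cholangiocytes, the epithelial cells of bile ducts. Livers were perfused with collagenase, the parenchyma was removed, the remaining biliary tree was digested, and cells were pulled down with magnetic beads and an antibody to EpCAM, a surface protein of epithelia. The labels do not say whether the replicates of a group are separate mice, so the p-values reflect variation among libraries only, part of which may be technical.

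Bile ducts form a tree of epithelial tubes that carry bile from the liver and adjust it by secreting bicarbonate and water. In polycystic liver disease, ducts widen into cysts that lose contact with the tree, fill with fluid and grow by division of the lining cells. Many of the inherited disease genes encode proteins of the primary cilium or proteins that help those fold and mature in the endoplasmic reticulum. Cysts are surrounded by a wall of matrix, fibroblasts and blood vessels, so a preparation from a cystic liver can hold cells of several kinds.

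Total counts ran from 17746740 to 29277311 in PLD at 1 month and from 17048976 to 19958375 at 2 months, and between 18012959 and 27999474 in WT. On the first principal component of log2 CPM (CPM, counts scaled to a common library size with TMM factors), which held 49.0% of the variance, PLD at 2 months lay between -95.1 and -83.4. PLD at 1 month lay at -26.2, -35.6 and 5.89, and WT between 60.0 and 75.4 except for 1 library, WT replicate 3 at 1 month, at -7.63. That library also had the lowest endothelial, fibroblast and smooth muscle marker levels of its group. PLD replicate 3 at 1 month was the PLD library nearest to WT.

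Cholangiocyte markers were abundant in all 6 PLD libraries. Krt19, the keratin of bile ducts, had 1662, 1664 and 859 CPM at 1 month and 3159, 2759 and 2765 CPM at 2 months, and Epcam, the protein used for capture, had 475, 442 and 317 CPM at 1 month and 535, 422 and 548 CPM at 2 months. The mean level of 20 cholangiocyte markers was 8.19, 8.10 and 7.75 at 1 month and 8.32, 8.26 and 8.33 at 2 months (log2 CPM). All 3 libraries at 2 months were above all 3 at 1 month, and the summed level of these markers was 15310 to 20950 CPM at 1 month and 24130 to 24990 CPM at 2 months. Other cell types were present too and moved with time. Endothelial markers stood at 7.50, 6.83 and 7.79 at 1 month and 5.33, 6.14 and 5.07 at 2 months (mean log2 CPM of 16 genes) and smooth muscle genes at 5.91, 6.04 and 6.26 at 1 month and 4.19, 4.40 and 4.38 at 2 months (12 genes), with every library at 2 months below every library at 1 month in both lists. In bulk samples, fewer cells of a type and less RNA per cell cannot be told apart. Stellate cell and fibroblast markers stood at 7.75, 7.70 and 8.23 at 1 month and 7.06, 6.81 and 7.29 at 2 months (20 genes), also without overlap. Macrophage markers, at 3.44, 3.35 and 4.35 at 1 month and 4.56, 3.62 and 4.45 at 2 months, and hepatocyte markers, at 2.90, 3.03 and 3.88 at 1 month and 3.29, 3.90 and 3.36 at 2 months, overlapped between the times.

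**Figure D1:**
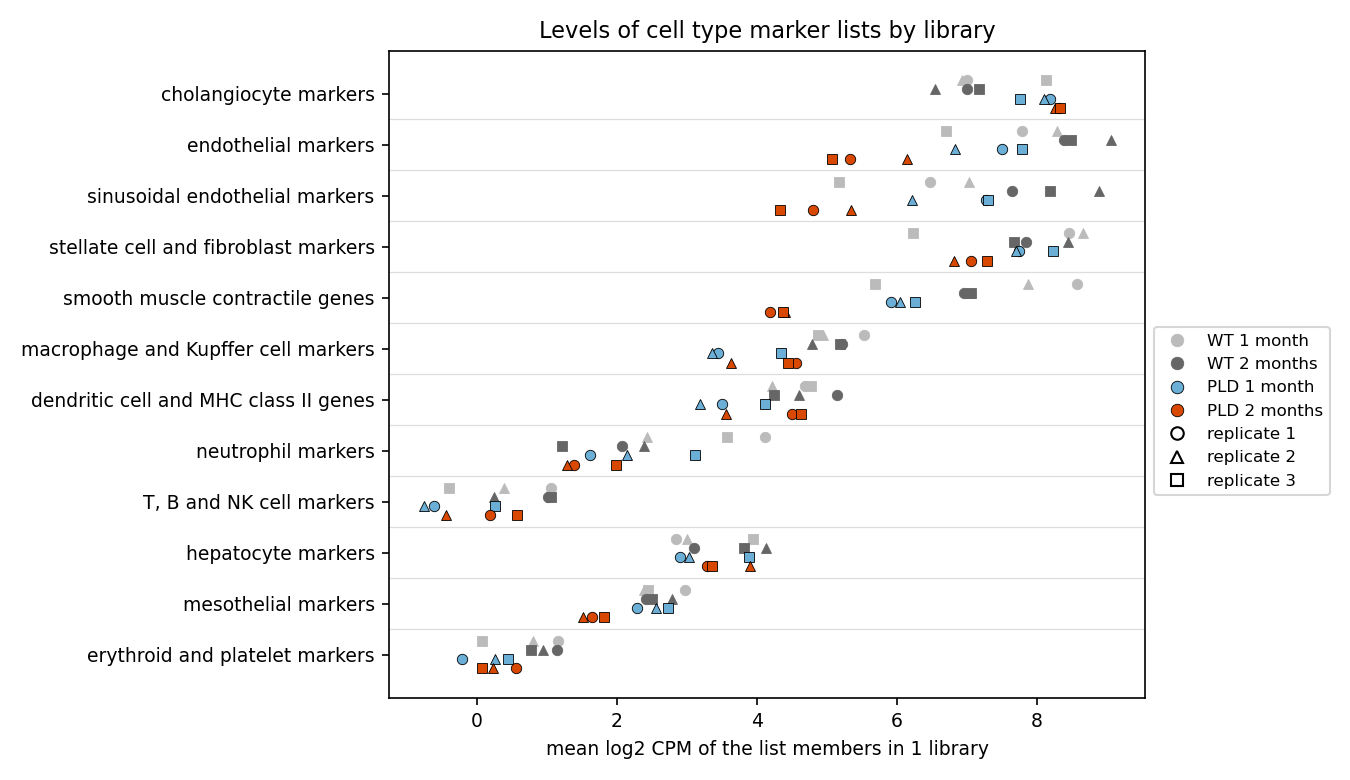
Mean log2 CPM of each list of cell type markers (x axis) in each of the 12 untreated libraries, coloured by group, with the replicate number as the shape. Endothelial, sinusoidal, fibroblast, smooth muscle and mesothelial markers are lower in all 3 PLD libraries at 2 months than in all 3 at 1 month, and cholangiocyte markers are higher.

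Between 1 and 2 months the genes that rose in PLD included Mmp7, Tff3, Krt20 and Areg, and those that fell included Muc6, Eln, Kdr and Insig1, all described below. Of 17749 genes tested, 778 rose, which is 4.38% of the genes, and 928 fell, which is 5.23%; together they were 1706 genes or 9.61% (edgeR quasi-likelihood F-test, Benjamini-Hochberg adjusted p under 0.05, the rule for "rose" and "fell" throughout). Those that rose had a median log2 fold change of 0.78 and those that fell one of -1.36, and 282 rose and 590 fell by more than 2-fold. The 3 libraries at 2 months did not overlap the 3 at 1 month for 1703 of the 1706 genes, and for 43.8% of all genes tested. A lack of overlap stated below for a called gene therefore describes its values and adds no support to the call. The median log2 fold change over all genes was -0.01. Counts of called genes in the lists below stand against these shares of all genes, 4.38% higher, 5.23% lower and 9.61% together. All changes below are log2 fold changes ± SE, 2 months against 1 month, with n = 3 libraries a group, and levels are CPM per library in the order of replicates 1, 2 and 3.

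The number of calls rested on every PLD library. It was 242 higher and 187 lower without replicate 1 at 2 months, 233 and 366 without replicate 2, and 150 and 124 without replicate 3. Without a library at 1 month it was 92 and 146 (replicate 1), 223 and 421 (replicate 2) and 62 and 73 (replicate 3). Of 144 genes named by rule and called, 17 were still called in each of these 6 fits: Areg, Krt20, Lgals4, Cyp26a1, Ppp2r2c, Mmp7, Mt2, Meg3, Rian, Rspo3, Wnt9b, Wnt10a, Stard4, Insig1, Lama4, Slc39a8 and Sult1d1. With the mean endothelial marker level of each library as a covariate, 116 genes were called higher and 110 lower, of which 48 and 28 were also called without it. Of the 144 named genes 128 lost their call under this covariate, 7 turned direction and 9 were still called; of the 17 above, Mmp7, Mt2, Rspo3 and Stard4 were still called. The endothelial level did not overlap between the times, so it and time can be separated only in part. Under it edgeR called 0 genes in the lists of mucus, brush border, transport, EGF, fatty acid oxidation, smooth muscle and fibrillar matrix genes described below. At an unadjusted p under 0.05 there were 3, 2, 1, 3, 8, 0 and 2 higher and 1, 2, 3, 2, 2, 0 and 0 lower, in that order. Lists with 0 calls under this covariate also included Notch, Hedgehog, basement membrane, glutathione, hypoxia, nuclear oxidative phosphorylation, mesothelial, fibroblast and macrophage genes. There 5, 4, 3, 1, 8, 5, 2, 6 and 0 were higher at an unadjusted p under 0.05. In the same order 2, 1, 4, 2, 0, 1, 4, 1 and 0 were lower. Members stayed called in other lists, such as 5 interferon genes higher and 7 sterol synthesis genes lower. With both PLD replicate 3 at 1 month and replicate 2 at 2 months left out, edgeR called 0 genes, with 1473 higher and 1640 lower at an unadjusted p under 0.05. With library totals in place of TMM factors the calls were 529 higher and 1181 lower, which is 30.9% higher against 45.6%.

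The gene with the largest rise among well expressed genes was Mmp7 (ENSMUSG00000018623.9, chr9:7692090-7699585, mm10), which encodes matrilysin, a protease that epithelia secrete. It had 16.8, 14.5 and 11.99 CPM at 1 month and 99.03, 942 and 311 CPM at 2 months. All 3 libraries at 2 months were far above those at 1 month, replicate 2 the highest, and the change was 4.96 ± 0.70 (edgeR adjusted p = 0.00818). In WT it had 37.9, 22.8 and 37.6 CPM at 1 month and 36.6, 56.2 and 33.1 CPM at 2 months, so the PLD libraries went from below to above all WT libraries. The interaction, the PLD change minus the WT change, was 4.61 ± 0.88 (edgeR adjusted p = 0.0209).

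Duox2 (chr2:122279247-122298449), which encodes an oxidase that releases hydrogen peroxide at the surface of mucosae, had 24.1, 24.1 and 21.7 CPM at 1 month and 214, 196 and 317 CPM at 2 months. Duoxa2 (chr2:122298900-122302885), which encodes the factor that brings this oxidase to the membrane, had 7.09, 4.67 and 4.54 CPM at 1 month and 62.5, 70.4 and 102 CPM at 2 months. Both pairs of groups were well apart, with rises of 3.38 ± 0.92 (edgeR adjusted p = 0.0438) and 3.85 ± 0.98 (adjusted p = 0.0364). These genes lie head to head, with start sites 673 bases apart on opposite strands. WT libraries spread widely for both, from 3.19 to 128 CPM for Duox2, and neither interaction passed the test (edgeR adjusted p = 0.0773 and 0.0587). Cxcl17, a chemokine of mucosal surfaces, had 1.201, 0.239 and 0.247 CPM at 1 month and 5.75, 12.3 and 14.02 CPM at 2 months, a rise of 4.31 ± 0.85 (edgeR adjusted p = 0.018). Lcn2, which encodes an iron-trapping protein of innate defence and stands in the list of neutrophil markers, rose by 1.31 ± 0.36 and was the 1 of 11 tested members of that list to be called. Apol7a rose by 3.62 ± 0.88, a value to read with care because it has close paralogs.

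Cyp26a1 (chr19:37697798-37701536), which breaks down retinoic acid, had 0.858, 0.614 and 0.937 CPM at 1 month and 14.03, 6.99 and 16.2 CPM at 2 months. Its rise of 3.96 ± 0.44 had the smallest adjusted p of the comparison, 0.00554 by edgeR, shared with Ppp2r2c, which encodes a regulatory subunit of protein phosphatase 2A and had 1.72, 0.5795 and 0.543 CPM at 1 month and 13.97, 13.9 and 19.6 CPM at 2 months. Neither gene overlapped between the times. Sult1d1, a sulfotransferase, had 1.14, 0.989 and 0.197 CPM at 1 month and 6.77, 29.2 and 10.6 CPM at 2 months and rose by 4.31 ± 0.68 (edgeR adjusted p = 0.0108).

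**Figure D2:**
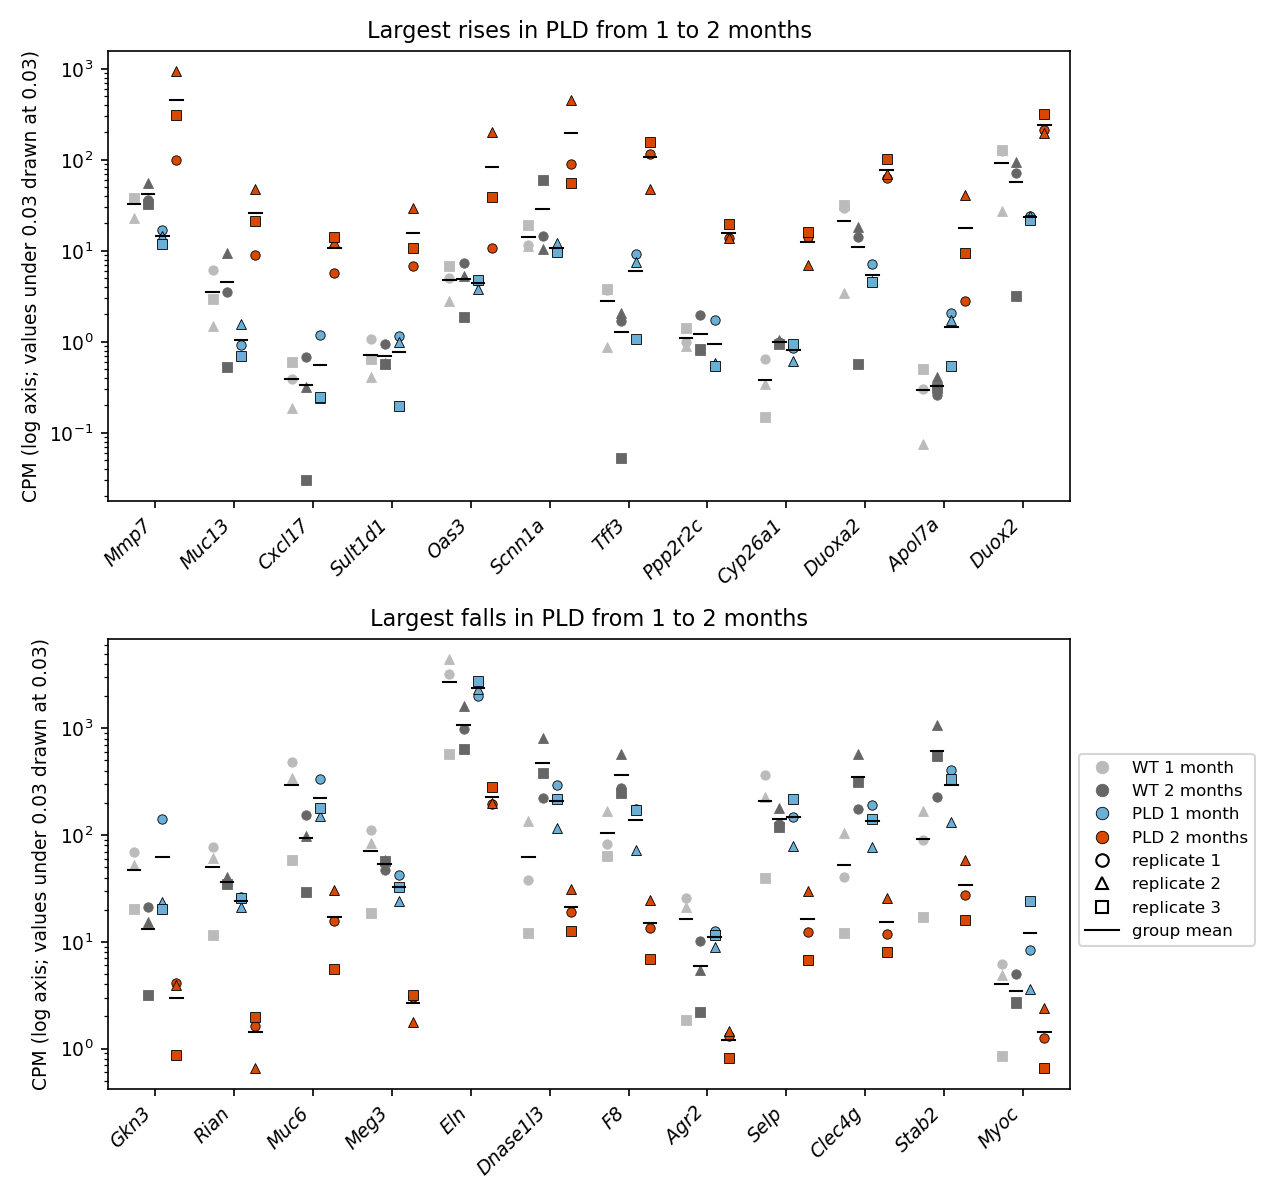
CPM on a log axis of the 12 genes with the largest rises (top) and the 12 with the largest falls (bottom) among called genes with a mean of at least 10 CPM in the higher group, 1 point per library and a line at the group mean. Genes were drawn only if the 3 PLD libraries at 2 months did not overlap the 3 at 1 month. The separation of the times therefore follows from the choice of genes. For Mmp7 and Oas3 replicate 2 at 2 months is the highest.

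Mucus and surface genes of the stomach and intestine were called in both directions. Of 17 tested genes of mucus, trefoil factors and gastric-type surfaces, 6 rose and 3 fell (list median 0.96, all genes -0.01). Tff3 (chr17:31125306-31129646), a trefoil peptide that goblet cells secrete with mucus, had 9.21, 7.57 and 1.08 CPM at 1 month and 115, 47.8 and 159 CPM at 2 months. The lowest library at 2 months was more than 5 times the highest at 1 month, and the rise was 4.17 ± 0.89 (edgeR adjusted p = 0.0217). Muc13, a membrane-bound mucin, had 0.915, 1.57 and 0.691 CPM at 1 month and 8.93, 47.7 and 21.4 CPM at 2 months and rose by 4.58 ± 0.98 (edgeR adjusted p = 0.0222). Fcgbp, a mucus protein of goblet cells, had 100.2, 103 and 59.99 CPM at 1 month and 462, 595 and 593 CPM at 2 months, a rise of 2.65 ± 0.47 (edgeR adjusted p = 0.0142). The surface proteins Psca, Msln (mesothelin) and Anxa8 (an annexin) rose by 2.15 ± 0.50, 1.35 ± 0.28 and 1.18 ± 0.31.

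The 3 that fell were Muc6, Gkn3 and Agr2. Muc6 (chr7:141633456-141655319), the gel-forming mucin of gastric and duct glands, had 334, 149.6 and 181 CPM at 1 month and 15.6, 30.6 and 5.57 CPM at 2 months. Gkn3, a gastrokine of the stomach lining, had 142, 23.4 and 20.1 CPM at 1 month and 4.14, 3.95 and 0.861 CPM at 2 months. Agr2, a disulfide isomerase needed to fold mucins, had 12.8, 9.03 and 11.5 CPM at 1 month and 1.32, 1.46 and 0.8101 CPM at 2 months. None overlapped between the times, and the changes were -3.68 ± 0.88, -4.38 ± 1.00 and -3.21 ± 0.83 (edgeR adjusted p = 0.0296, 0.0266 and 0.0389). The WT values were -1.65, -1.83 and -1.46, none of which passed the test, and none of the 3 interactions was called. Tff1 and Tff2, trefoil peptides of the stomach, did not pass the test, at -0.0049 ± 0.72 and 0.85 ± 0.61 (chosen after their values were seen). Without PLD replicate 1 or replicate 3 at 1 month none of the 17 genes was called by edgeR, with 7 and 6 higher and 5 lower in each at an unadjusted p under 0.05. Without another PLD library 1 to 4 were called higher and 0 or 1 lower, with 4 or 5 lower at an unadjusted p under 0.05. Over the 6 fits without 1 PLD library Muc6 and Agr2 were called in 0 and Gkn3 in 1.

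Among 19 tested brush border and intestinal-type genes, 5 rose and 2 fell (list median 0.63), and 2 rose in each of the 6 fits without 1 PLD library. Krt20 (chr11:99428403-99438150), a keratin of intestinal and gastric surface cells, had 27.3, 29.6 and 9.42 CPM at 1 month and 138, 207 and 163 CPM at 2 months. Lgals4, an intestinal galectin that organises apical membranes, had 80.6, 74.99 and 32.6 CPM at 1 month and 342, 414 and 377 CPM at 2 months. Both were far apart between the times and rose by 2.93 ± 0.43 (edgeR adjusted p = 0.00945) and 2.59 ± 0.39 (adjusted p = 0.00988). Myo1a, the myosin that ties the actin core of microvilli to the membrane, had 6.46, 7.64 and 3.55 CPM at 1 month and 37.8, 41.5 and 24.2 CPM at 2 months and rose by 2.55 ± 0.70 (adjusted p = 0.0447). Cdhr5 and Espn, of microvillus adhesion and bundling, rose by 1.91 ± 0.54 and 0.92 ± 0.26 (both named after their values were seen). The caudal homeobox genes Cdx1 and Cdx2, which direct intestinal identity, were too low to be tested. Fabp1, the fatty acid binding protein of liver and intestine, was near 0 at both times, with 0.572, 0.273 and 1.18 CPM at 1 month and 0, 0 and 0.0506 CPM at 2 months, and Dpp4, a peptidase of brush borders, changed by -1.24 ± 0.29 (edgeR adjusted p = 0.0279).

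**Figure D3:**
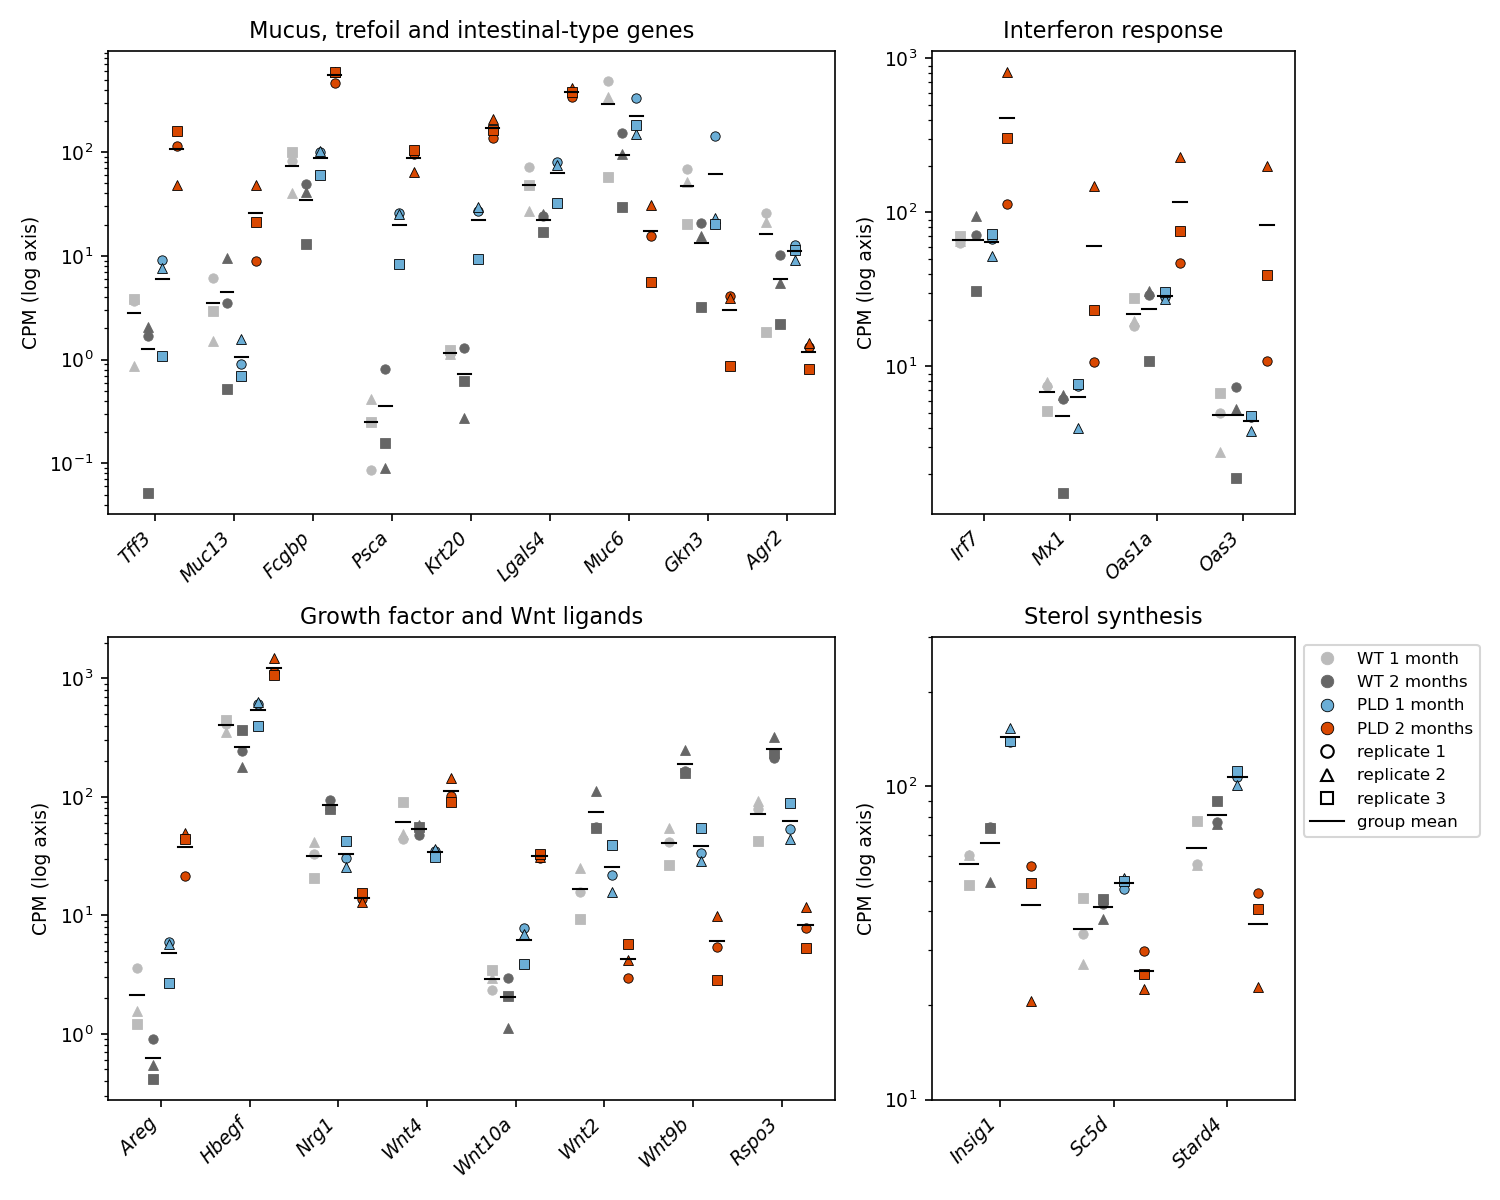
CPM on log axes of genes of mucus and intestinal type, of interferon response, of growth factor and Wnt ligands and of sterol synthesis, 1 point per library with the replicate as its shape and a line at the group mean. Tff3, Krt20 and Areg are higher and Muc6, Rspo3 and Stard4 lower in all 3 PLD libraries at 2 months than at 1 month, and the interferon genes are highest in replicate 2 at 2 months.

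Of 24 tested genes of ion, water and bile acid transport in ducts, 5 rose and 1 fell (list median 0.34). Scnn1a (chr6:125320659-125344943), which encodes the alpha subunit of the epithelial sodium channel, had 9.95, 12.2 and 9.77 CPM at 1 month and 89.98, 449.9 and 55.2 CPM at 2 months. All libraries at 2 months were above those at 1 month, replicate 2 the highest, with a rise of 4.22 ± 0.87 (edgeR adjusted p = 0.0198). The beta subunit gene Scnn1b was at -0.013 ± 0.48 (adjusted p = 0.988) and the gamma subunit gene Scnn1g was too low to be tested. Abcc3, which exports bile acid conjugates across the basolateral membrane, had 136, 164 and 91.3 CPM at 1 month and 394, 423 and 419.9 CPM at 2 months, a rise of 1.66 ± 0.41 (edgeR adjusted p = 0.0319). Clcn2, a chloride channel, rose by 1.55 ± 0.29 and Slc4a2, the anion exchanger that secretes bicarbonate, by 0.41 ± 0.093 (edgeR adjusted p = 0.0163 and 0.0247). Slc4a2 was the 1 cholangiocyte marker of 20 to be called, and Krt19 (1.05 ± 0.32, adjusted p = 0.0626), Krt7 (1.03 ± 0.35, adjusted p = 0.0809) and Sox9 (0.69 ± 0.39, adjusted p = 0.265) did not pass. Cftr, the chloride channel that secretin opens, was at -0.37 ± 0.40 and the water channel gene Aqp1 at -1.62 ± 0.54, neither called (adjusted p = 0.575 and 0.0784). Elf3, a transcription factor of epithelia, was the 1 of 20 biliary transcription factors that rose, by 1.31 ± 0.37 (edgeR adjusted p = 0.0482). Without PLD replicate 1 or replicate 3 at 1 month none of the 24 transport genes was called by edgeR (in each, 6 higher and 2 lower at an unadjusted p under 0.05), and without another PLD library 2 were.

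Of 15 tested ligands and receptors of the EGF family 3 rose and 1 fell. Areg (chr5:91139599-91148432), which encodes amphiregulin, a ligand released from the membrane to activate EGFR, had 5.95, 5.76 and 2.66 CPM at 1 month and 21.3, 49.1 and 43.7 CPM at 2 months. Every library at 2 months was over 3 times the highest at 1 month, and the rise of 2.99 ± 0.47 (edgeR adjusted p = 0.0108) stood beside -1.74 in WT, which did not pass the test. The interaction was 4.73 ± 0.71 (edgeR adjusted p = 0.0127). Hbegf, the heparin-binding ligand of the same receptor, had 612, 626 and 397 CPM at 1 month and 1136, 1491 and 1070 CPM at 2 months and rose by 1.18 ± 0.27 (edgeR adjusted p = 0.0273). Erbb2, the receptor subunit that has no ligand of its own, had 92.7, 98.9 and 71.1 CPM at 1 month and 187, 232 and 186 CPM at 2 months and rose by 1.21 ± 0.21 (edgeR adjusted p = 0.0136). Nrg1, which binds ERBB3 and ERBB4, had 30.5, 25.4 and 42.1 CPM at 1 month and 13.7, 12.9 and 15.4 CPM at 2 months and changed by -1.22 ± 0.24 (edgeR adjusted p = 0.0186). None of these 4 genes overlapped between the times. Egfr itself was at 0.19 ± 0.21 (adjusted p = 0.58).

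Wnt ligands were called in both directions. Secreted Wnt proteins and the R-spondins that strengthen them act through Frizzled and LRP receptors; in liver, Wnt2, Wnt9b and Rspo3 are known as products of the vessel lining. Of 14 genes tested, 3 rose and 3 fell. Wnt10a had 7.78, 7.02 and 3.897 CPM at 1 month and 30.3, 31.2 and 33.01 CPM at 2 months, and Wnt4 had 35.1, 35.96 and 30.8 CPM at 1 month and 101, 144 and 91.2 CPM at 2 months. They rose by 2.34 ± 0.33 (edgeR adjusted p = 0.00817) and 1.72 ± 0.26 (adjusted p = 0.00988), and Wnt7a, named after its value was seen, by 1.51 ± 0.29 (adjusted p = 0.0166). Rspo3 (chr10:29452416-29535867) had 53.2, 43.8 and 88.8 CPM at 1 month and 7.79, 11.9 and 5.32 CPM at 2 months. Wnt9b had 33.3, 28.7 and 54.1 CPM at 1 month and 5.46, 9.97 and 2.83 CPM at 2 months, and Wnt2 had 22.1, 15.8 and 39.2 CPM at 1 month and 2.94, 4.22 and 5.72 CPM at 2 months. No library at 2 months reached any at 1 month in these 3 genes, and the changes were -2.90 ± 0.39, -2.67 ± 0.44 and -2.57 ± 0.47 (edgeR adjusted p = 0.00758, 0.0119 and 0.0155). Endothelial markers were lower in the same libraries. With their level as a covariate Rspo3 was at -1.36 (edgeR adjusted p = 0.0337), Wnt9b at -1.11 (adjusted p = 0.11) and Wnt2 at -0.91 (adjusted p = 0.425). Feedback targets of the Wnt pathway gave 0 calls of 15 by edgeR and by limma-voom, 3 higher by DESeq2, and 5 higher at an unadjusted p under 0.05 by edgeR.

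Of other duct pathways 3 of 14 genes in the Hedgehog list, 3 of 18 in the Notch list, 2 of 20 in the TGF-beta list and 4 of 20 in the YAP and TEAD list were called, against 9.61% of all genes. In the Hedgehog list 1 of 14 genes rose and 2 fell: Ihh, the Indian hedgehog ligand of gut epithelium, rose by 1.73 ± 0.48 (edgeR adjusted p = 0.0457), while Dhh, the desert hedgehog ligand, changed by -1.56 ± 0.30 (adjusted p = 0.0167). In the Notch list 0 of 18 rose and 3 fell, Notch3 (a receptor of mural cells), Heyl and Hey1 (transcription factors that Notch induces), by -1.70 ± 0.37, -2.07 ± 0.48 and -1.15 ± 0.32. Tgfb2, a ligand of the TGF-beta family, changed by -0.92 ± 0.19, and Inhbb, which encodes the beta B chain of activin, by 1.46 ± 0.39; these were the 2 of 20 TGF-beta genes called. Among TEAD factors, the DNA-binding partners of YAP, Tead1 and Tead2 changed by -0.51 ± 0.12 and -0.73 ± 0.15 and Tead4 by 0.87 ± 0.16 (edgeR adjusted p = 0.0306, 0.0199 and 0.0166).

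**Figure D4:**
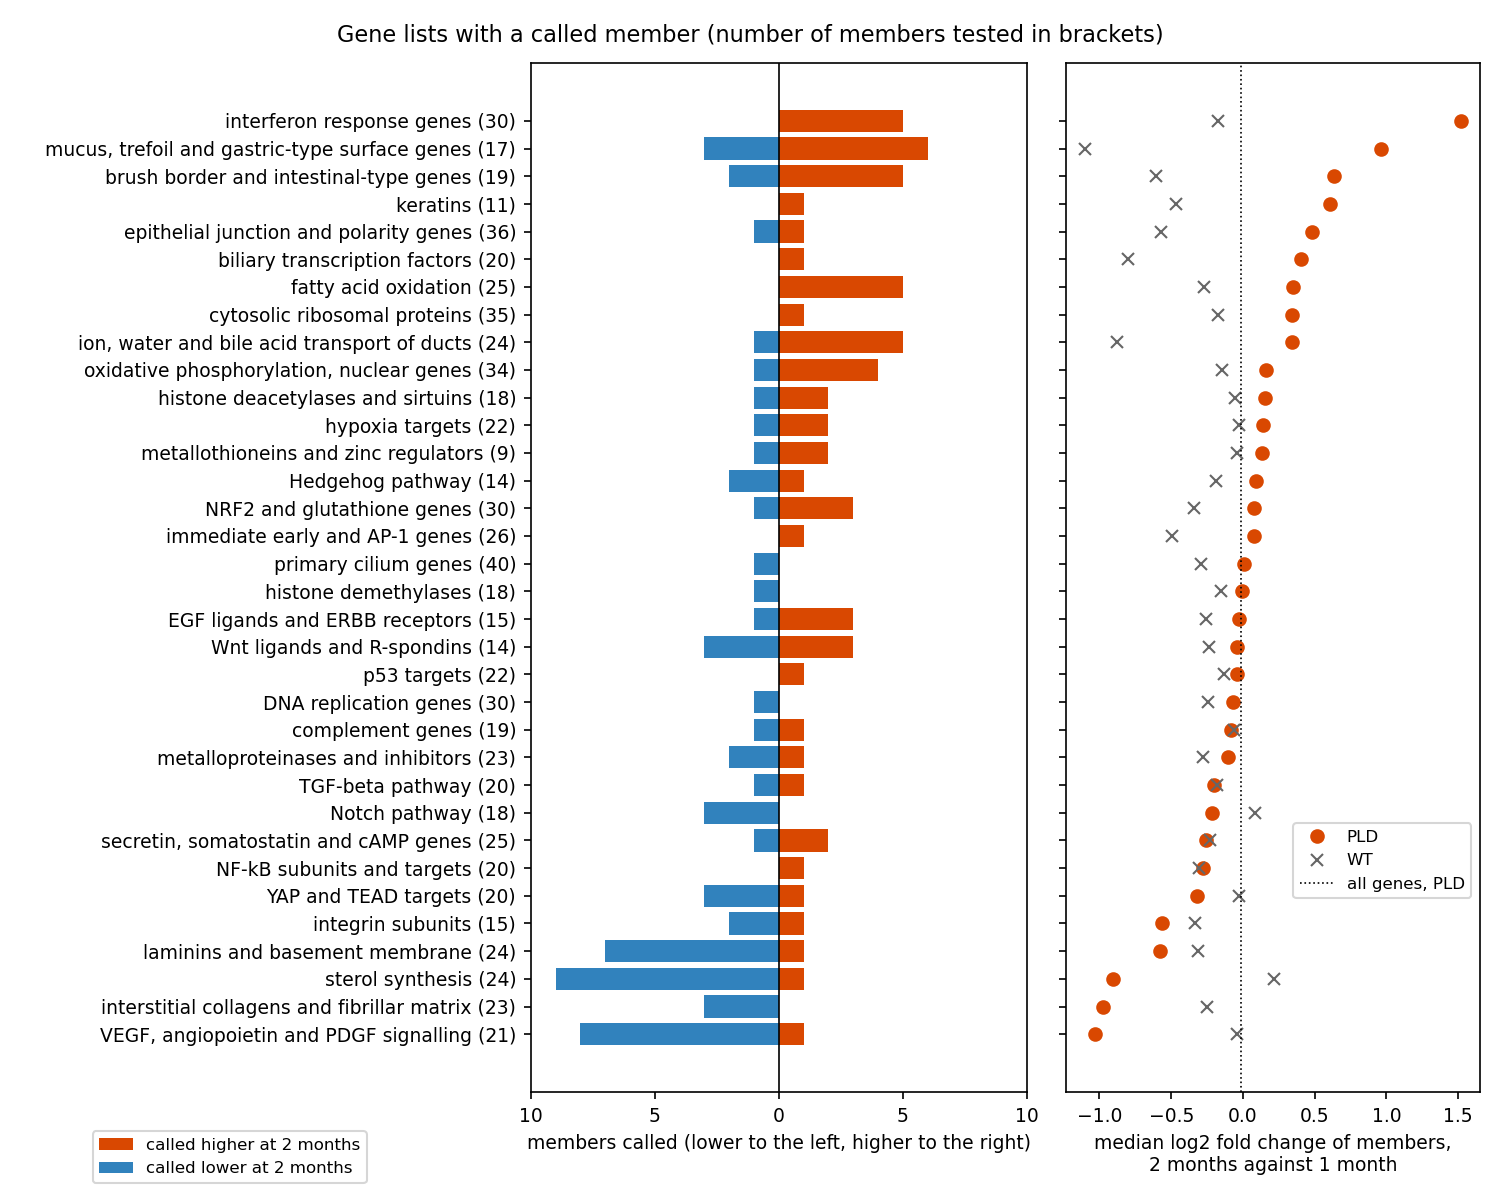
Left, members of each list with a called gene that were called higher (right of 0) or lower (left of 0) in PLD at 2 months, with the number tested in brackets. Right, the median log2 fold change of the list in PLD (points) and WT (crosses), with the PLD median of all genes as a dotted line; cell type marker lists are not drawn, and among the lists drawn interferon genes have the highest PLD median and VEGF, angiopoietin and PDGF genes the lowest.

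Interferon response genes were higher at 2 months, but unequally among the 3 libraries. All 30 genes of the list were tested, all 30 had a positive change, and 5 rose, with a list median of 1.52. The mean level of the list was 5.17, 4.83 and 5.39 at 1 month and 5.21, 7.89 and 6.01 at 2 months (log2 CPM), so replicate 1 at 2 months lay within the range of 1 month and replicate 2 far above it. Oas3 (chr5:120753098-120777661), which encodes a synthase of the oligoadenylates that switch on RNase L against viral RNA, had 4.69, 3.78 and 4.79 CPM at 1 month and 10.8, 200.1 and 39.5 CPM at 2 months. Mx1, an antiviral GTPase, had 7.43, 3.99 and 7.65 CPM at 1 month and 10.7, 148 and 23.1 CPM at 2 months. Irf7, the factor that amplifies type I interferon, had 67.4, 51.95 and 72.6 CPM at 1 month and 113, 819 and 305 CPM at 2 months. Replicate 2 was the highest in each, and the rises were 4.24 ± 0.92, 3.26 ± 0.87 and 2.69 ± 0.61 (edgeR adjusted p = 0.0227, 0.0415 and 0.0254). Oas1a had 28.3, 27.4 and 30.4 CPM at 1 month and 46.7, 228 and 76.05 CPM at 2 months and rose by 2.02 ± 0.54 (adjusted p = 0.0409); it and Oasl2, the fifth called gene, which rose by 2.36 ± 0.65 and was named after its value was seen, have close paralogs. Without replicate 1 at 2 months 8 of the 30 were called by edgeR, and without any other of the 6 PLD libraries none was, with 9 (without replicate 2 at 2 months) to 24 higher at an unadjusted p under 0.05. DESeq2 called 17 higher and limma-voom 1. Mmp7 and Scnn1a had their highest level in the same library, replicate 2 at 2 months. So did others among the genes that rose, such as Muc13, Sult1d1, Areg, Hbegf, Erbb2, Wnt4, Krt20 and Lgals4. Tff3 and Cyp26a1 were lowest in it among the libraries at 2 months.

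Promoter sequence is shown for the 2 called interferon genes whose upstream 250 bases hold the interferon-stimulated response element, searched on both strands as GAAA, any 2 bases and GAAA again. The windows are from RefSeq (GRCm38.p6), read 5′ to 3′ on the gene's strand, with the matching bases in capitals. The Oas3 window is chr5:120777700-120777769 on the minus strand, from 110 to 41 bases before the start, and the Oas1a window is chr5:120907526-120907585 on the minus strand, from 60 to 1 bases before it, where 2 overlapping matches form 1 run.
Oas3: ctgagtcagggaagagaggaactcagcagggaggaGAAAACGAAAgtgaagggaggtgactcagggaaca
Oas1a: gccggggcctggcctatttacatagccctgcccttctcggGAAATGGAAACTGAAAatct
The letters were found in 12 of the 22 list genes that matched a promoter (54.5%), in 2 of the 4 called ones, and in 936 of all 27025 promoters (3.46%). A match describes the sequence and shows no binding.

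Sterol synthesis genes were lower at 2 months. Cells make cholesterol from acetyl-CoA through a long chain of enzymes, whose genes are switched on together by SREBP2 when sterols are scarce. Of 24 genes tested, 9 fell and 1 rose (list median -0.90, WT 0.22). The mean level of the list was 5.46, 5.49 and 5.44 at 1 month and 4.92, 4.04 and 4.89 at 2 months (log2 CPM), with every library at 2 months below those at 1 month and replicate 2 the lowest. Stard4, which moves cholesterol between membranes, had 107, 101 and 112 CPM at 1 month and 45.5, 22.9 and 40.7 CPM at 2 months. Insig1, the protein that holds the SREBP complex in the endoplasmic reticulum, had 139, 154 and 139.6 CPM at 1 month and 55.6, 20.6 and 49.1 CPM at 2 months. Neither gene overlapped between the times, and the changes were -1.55 ± 0.23 and -1.79 ± 0.31 (edgeR adjusted p = 0.00938 and 0.0126). Sc5d, a late enzyme of the chain, changed by -0.93 ± 0.17 (adjusted p = 0.0144). The WT values of these 3 genes were 0.35, 0.22 and 0.24, none called, and the 3 interactions were called, from -2.00 for Insig1 to -1.17 for Sc5d. The gene that rose was Ebp, an isomerase of the same chain, by 0.47 ± 0.10 (named after its value was seen). The regulator gene Srebf2 was at -0.16 ± 0.19 (adjusted p = 0.615). With the endothelial covariate 7 of the 24 were called lower, and without 1 PLD library 4 to 7.

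The sterol regulatory element, searched as TCACNCCAC on both strands, was found in the upstream 250 bases of 1 of 16 sterol genes that matched a promoter (6.25%), against 331 of 27025 promoters (1.22%). That gene is Hmgcs1, an early synthase of the chain, which had 147 ± 18.9 CPM at 1 month and 52.4 ± 18.2 CPM at 2 months (mean ± SD, n = 3) and changed by -1.49 ± 0.27 (edgeR adjusted p = 0.0146); it is named for its match and not by the naming rule. The window is chr13:119690181-119690250 on the plus strand (RefSeq, GRCm38.p6), from 170 to 101 bases before the start, with the element in capitals.
Hmgcs1: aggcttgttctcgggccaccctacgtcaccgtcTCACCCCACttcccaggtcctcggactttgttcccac
No match in the other windows says only that these letters are not in them.

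In fatty acid oxidation 5 of 25 genes rose and 0 fell, with 24 of 25 changes positive and a median of 0.35. Acaa1b, the thiolase of peroxisomes, had 5.32, 6.37 and 3.55 CPM at 1 month and 10.1, 14.1 and 11.04 CPM at 2 months and rose by 1.21 ± 0.29 (edgeR adjusted p = 0.0293). Acaa2, the thiolase of mitochondria, had 112, 89.6 and 98.2 CPM at 1 month and 145, 183 and 144 CPM at 2 months and rose by 0.65 ± 0.15 (adjusted p = 0.0293), and the isomerases Eci1 and Eci2 rose by 0.52 ± 0.12 and 0.67 ± 0.16. All 4 were higher in every library at 2 months. Nuclear genes of oxidative phosphorylation gave 4 rises and 1 fall of 34, against 9.61% of all genes called. They were led by Cyc1, cytochrome c1, at 0.47 ± 0.085 (edgeR adjusted p = 0.0144). The gene mt-Co1, for a subunit encoded in mitochondrial DNA, was at -0.05 ± 0.20 (adjusted p = 0.895). Of 35 cytosolic ribosomal protein genes 34 had a positive change (median 0.34), but edgeR called 1 of them; 15 were higher at an unadjusted p under 0.05, and DESeq2 called 11. Without replicate 2 at 1 month 1 of the 25 fatty acid oxidation genes was called by edgeR, and without any other of the 6 PLD libraries none was, with 10 to 13 higher at an unadjusted p under 0.05.

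Mt2 (chr8:94172664-94173568), which encodes a small protein that binds zinc and copper, had 5.03, 4.53 and 3.85 CPM at 1 month and 51.4, 52.05 and 31.1 CPM at 2 months. Its 3 libraries at 2 months were over 6 times the highest at 1 month, for a rise of 3.33 ± 0.42 (edgeR adjusted p = 0.00676) against -0.088 in WT, with an interaction of 3.41 ± 0.57 (adjusted p = 0.016). Mt1, a metallothionein encoded next to it, had 435 ± 61.5 CPM at 1 month and 560.0 ± 103 CPM at 2 months (mean ± SD, n = 3) and was at 0.37 ± 0.33 (adjusted p = 0.498). The zinc importer of the intestinal surface, Slc39a4, had 124, 128 and 82.04 CPM at 1 month and 284, 216 and 371 CPM at 2 months and rose by 1.38 ± 0.38 (adjusted p = 0.0451). Slc39a8, an importer of zinc and manganese, had 45.9, 25.6 and 44.5 CPM at 1 month and 11.1, 9.37 and 5.01 CPM at 2 months and changed by -2.19 ± 0.35 (adjusted p = 0.0113), with 1.22 in WT. These 3 were the called genes of 9 tested.

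The Mt2 promoter is shown for its matches to a loose form of the metal response element, searched on both strands as TGCNCNC with any base at each N. The window is chr8:94172383-94172582 on the plus strand (RefSeq, GRCm38.p6), upstream of the start. Capitals mark the 5 matches, of which those that begin with G read as the pattern on the other strand. Matches with T as the fourth base of the pattern, such as TGCTCTC, fit only because any base was allowed there.
Mt2: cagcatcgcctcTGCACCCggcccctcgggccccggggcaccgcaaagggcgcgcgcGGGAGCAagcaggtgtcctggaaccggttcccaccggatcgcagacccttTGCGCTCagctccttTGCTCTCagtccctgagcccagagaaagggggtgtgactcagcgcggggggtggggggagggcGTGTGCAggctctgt
At least 1 match was present in 12755 of 27025 promoters (47.2%), so a single one says little, and at least 5 in 106 of them (0.392%). Of the 7 list genes that matched a promoter 6 had 1 or more.

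Glutathione genes gave 3 rises and 1 fall of 30, against 9.61% of all genes called. Gsta4, a transferase that clears lipid aldehydes, had 116, 119.8 and 44.99 CPM at 1 month and 437, 326 and 397 CPM at 2 months and rose by 2.05 ± 0.42 (edgeR adjusted p = 0.0197). Gsto1 and Mgst3, transferases of the omega and microsomal classes, rose by 1.69 ± 0.39 and 0.68 ± 0.16 (adjusted p = 0.0279 and 0.0274). Nqo1, a quinone reductase often read as a target of NRF2, had 9.38, 8.897 and 12.9 CPM at 1 month and 3.24, 4.28 and 2.63 CPM at 2 months and changed by -1.62 ± 0.36 (adjusted p = 0.0253). None of these 4 genes overlapped between the times. Of 22 hypoxia targets tested 2 rose and 1 fell, against the same 9.61% of all genes. Pfkfb3 (a regulator of glycolysis) and P4ha2 (a collagen hydroxylase) rose by 0.82 ± 0.23 and 0.51 ± 0.14. Epas1, which encodes HIF-2 alpha, changed by -0.95 ± 0.27.

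Of 16 endothelial markers 14 fell and 0 rose (list median -1.82, WT 1.01). All 16 were lower in every library at 2 months, where 43.8% of all genes tested did not overlap in 1 direction or the other. The summed level of the 16 markers was 2798 to 5364 CPM at 1 month and 861 to 1814 CPM at 2 months. Pecam1 (chr11:106654217-106750628), the adhesion protein of vessel linings, had 434, 282 and 536 CPM at 1 month and 87.6, 179 and 74.4 CPM at 2 months. Kdr, the main receptor for VEGF, had 519, 213 and 447 CPM at 1 month and 72.8, 89.2 and 52.4 CPM at 2 months, and Tek, the receptor for angiopoietins, had 183, 107 and 234 CPM at 1 month and 24.9, 52.9 and 20.7 CPM at 2 months. The changes were -1.88 ± 0.45, -2.46 ± 0.51 and -2.41 ± 0.48 (edgeR adjusted p = 0.0297, 0.0197 and 0.0181). The WT values were 0.68, 1.61 and 1.38, none called, and the 3 interactions were called. Sinusoidal endothelial markers gave 7 falls of 16 (list median -2.11), with Stab2, a scavenger receptor, at -3.11 ± 0.85, Clec4g, a lectin, at -3.17 ± 0.77, Dnase1l3, a nuclease, at -3.31 ± 0.82 and F8, coagulation factor VIII, at -3.21 ± 0.58. Selp, the selectin of activated vessels, had 148, 79.4 and 217 CPM at 1 month and 12.3, 30.1 and 6.73 CPM at 2 months and changed by -3.17 ± 0.76 (adjusted p = 0.0299). Without replicate 1 or 3 at either time none of the 16 endothelial markers was called by edgeR, and without replicate 2 at 1 or 2 months 10 and 12 were; all 16 were lower at an unadjusted p under 0.05 in each of these fits. Of the sinusoidal markers 2 to 6 were called. Of the ligands, Vegfa, the main VEGF of epithelia, was at 0.42 ± 0.33 (adjusted p = 0.428, named outside the rule) and Vegfb rose by 0.51 ± 0.092 (adjusted p = 0.015).

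Some muscle and matrix genes fell as well. Eln (chr5:134702593-134747323), which encodes elastin of elastic fibres, had 2011, 2330 and 2760 CPM at 1 month and 196, 202 and 283 CPM at 2 months. Every library at 2 months was far below those at 1 month, a change of -3.38 ± 0.62 (edgeR adjusted p = 0.0154). The WT value was -1.34, and the interaction was not called (adjusted p = 0.16). Acta2, smooth muscle actin, had 686, 762 and 855 CPM at 1 month and 138, 162 and 172 CPM at 2 months, and Myh11, smooth muscle myosin, had 712, 671 and 678 CPM at 1 month and 148, 195 and 137 CPM at 2 months. They changed by -2.29 ± 0.56 and -2.10 ± 0.50 (edgeR adjusted p = 0.0313 and 0.0296), 2 of 5 falls among 12 smooth muscle genes (list median -1.92). In each of the 6 fits without 1 PLD library none of the 12 was called by edgeR, with 9 to 11 lower at an unadjusted p under 0.05, and none with a replicate block either, with 10. Of 24 basement membrane genes 7 fell and 1 rose. Lama4, the laminin chain of vessels and muscle, had 126, 88.5 and 135 CPM at 1 month and 44.1, 30.2 and 53.1 CPM at 2 months and changed by -1.46 ± 0.23 (adjusted p = 0.0108), and Col18a1, which carries endostatin, by -1.18 ± 0.20 (adjusted p = 0.0126). The 1 that rose, Lamb3, is a chain of the laminin of epithelia and was at 0.92 ± 0.26 (named after its value was seen), and Itgb4, the integrin that binds that laminin, rose by 0.67 ± 0.18 (adjusted p = 0.0404). Of 23 fibrillar matrix genes 3 fell, against 5.23% of all genes: Eln, Col14a1 at -2.02 ± 0.55 and Col5a3 at -2.75 ± 0.77. Col1a1, the chain of type I collagen, had 1824, 1799 and 1914 CPM at 1 month and 1319, 424 and 1718 CPM at 2 months. Its libraries at 2 months were below those at 1 month, replicate 2 by far the lowest, and it was not called at -0.68 ± 0.63 (edgeR adjusted p = 0.504). Stellate cell and fibroblast markers fell in 3 of 20, Mgp, Fbln2 and Rgs5, at -1.45 ± 0.38, -1.08 ± 0.28 and -1.57 ± 0.35.

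Meg3 and Rian, long noncoding RNAs of 1 imprinted cluster, both fell. Meg3 (chr12:109541001-109571726) had 42.04, 24.4 and 32.5 CPM at 1 month and 3.06, 1.79 and 3.19 CPM at 2 months, and Rian (chr12:109603808-109661716) had 26.4, 21.1 and 25.5 CPM at 1 month and 1.62, 0.650 and 1.98 CPM at 2 months. The levels at 2 months were at most 3.19 and 1.98 CPM, clear of every library at 1 month, and the changes were -3.62 ± 0.56 and -4.10 ± 0.63 (edgeR adjusted p = 0.00988 and 0.00988). Neither was called by limma-voom (adjusted p = 0.0528 and 0.0659) or by edgeR with the endothelial covariate (adjusted p = 0.215 and 0.172). WT libraries held 110.4, 84.8 and 18.8 CPM at 1 month and 46.99, 58.1 and 57.1 CPM at 2 months for Meg3. In WT the library with the lowest fibroblast and smooth muscle markers, replicate 3 at 1 month, was also the lowest for both genes. With the mean fibroblast marker level of each library as a covariate, edgeR still called both genes. That level did not overlap between the times in PLD, so it and time can be separated only in part. Each gene was called in 22 of 25 alternative fits, which reuse the same libraries. No fit used smooth muscle markers as a covariate, and their part in the PLD change was not tested.

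Macrophage markers gave 2 rises of 18, against 4.38% of all genes that rose. Csf1r, the receptor for colony-stimulating factor 1, had 309, 347 and 247 CPM at 1 month and 729.6, 538 and 599 CPM at 2 months. It rose by 1.05 ± 0.28 (edgeR adjusted p = 0.0409), and Fcgr1, an Fc receptor, by 2.06 ± 0.50 (adjusted p = 0.0324). Adgre1, which encodes F4/80, had 14.3, 17.5 and 38.97 CPM at 1 month and 68.7, 11.7 and 62.7 CPM at 2 months, overlapped between the times and was not called. Of 19 hepatocyte markers 3 rose: Apoa1, Fga and Fgb, of lipoproteins and fibrinogen, at 2.31 ± 0.52, 1.87 ± 0.40 and 2.04 ± 0.52. The WT values of Fga and Fgb were 1.85 and 2.36, which did not pass the test. Alb, albumin, had 2667, 3316 and 1992 CPM at 1 month and 4951, 1541 and 4655 CPM at 2 months and was not called (0.48 ± 0.67, adjusted p = 0.665). Of 11 tested mesothelial markers 2 rose and 3 fell, with 8 of 11 changes negative and a list median of -1.57. The 2 that rose were Msln and Upk1b, by 1.35 ± 0.28 and 2.22 ± 0.45, while Gpm6a changed by -1.85 ± 0.33. Bnc1, called lower, was near 0 throughout, with 0.286, 0.477 and 0.740 CPM at 1 month and 0.0599, 0 and 0 CPM at 2 months.

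None of 12 genes of inherited polycystic disease was called by edgeR or limma-voom and 1 was by DESeq2, with 2 higher at an unadjusted p under 0.05 by edgeR. Pkd1, polycystin-1, had 217, 217 and 272 CPM at 1 month and 207, 208 and 195 CPM at 2 months and Pkd2, polycystin-2, had 348, 362 and 335 CPM at 1 month and 409, 337 and 362 CPM at 2 months. Prkcsh, a glucosidase subunit of the endoplasmic reticulum, had 138, 134 and 128 CPM at 1 month and 172, 171 and 175 CPM at 2 months, without overlap but not called at 0.37 ± 0.11 (adjusted p = 0.0656). Pkhd1, fibrocystin, was at -0.22 ± 0.54 (adjusted p = 0.823) and Sec63 at -0.21 ± 0.16 (adjusted p = 0.421). Of 30 mitosis genes 0 were called by edgeR, with 28 of 30 changes negative and a median of -0.85, close to -0.76 in WT; 8 were lower at an unadjusted p under 0.05, and DESeq2 called 4 lower and limma-voom 1. Histone acetyltransferases gave 0 of 12 by each of the 3 tools and 0 at an unadjusted p under 0.05, and autophagy genes 0 of 25 by edgeR, with 2 higher and 2 lower at an unadjusted p under 0.05. Of 18 histone deacetylases and sirtuins 2 rose and 1 fell, and of 18 histone demethylases 1 fell. Of 40 genes of the primary cilium 1 fell, Arl13b, a GTPase of the cilium membrane, at -0.70 ± 0.13 (edgeR adjusted p = 0.0174). Esr1, oestrogen receptor alpha, had 578, 495 and 387 CPM at 1 month and 349, 302 and 273 CPM at 2 months and was not called at -0.66 ± 0.36 (adjusted p = 0.251).

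Time had few called effects in WT. Of the 17749 genes, 2 rose and 7 fell in WT from 1 to 2 months (0.0507%), with 2674 at an unadjusted p under 0.05. DESeq2 called 399 and 429, and without WT replicate 3 at 1 month edgeR called 70 and 319. The interaction of genotype and time, which tests whether the PLD change differs from the WT change, was called for 1008 genes (5.68%), 453 with a higher and 555 with a lower change in PLD. Of the 778 genes that rose in PLD 295 had a called positive interaction, and of the 928 that fell 383 had a called negative one.

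Genes with the largest interactions are named next. Adh6b, an alcohol dehydrogenase, had 2.52, 1.64 and 8.34 CPM at 1 month and 0.2398, 0.596 and 0.557 CPM at 2 months in PLD and 1.42, 1.58 and 1.25 CPM at 1 month and 10.2, 26.1 and 15.9 CPM at 2 months in WT. Its interaction was -6.73 ± 0.88 (edgeR adjusted p = 0.00768). Dnase1l3 had 37.7, 136 and 12.2 CPM at 1 month and 223, 816 and 379.8 CPM at 2 months in WT, against -3.31 as the change in PLD, and an interaction of -6.24 ± 1.15 (adjusted p = 0.0185). Il6st, the shared receptor subunit of the interleukin-6 family, had 1034, 718 and 1047 CPM at 1 month and 454, 497 and 452 CPM at 2 months in PLD and 932, 1245 and 736 CPM at 1 month and 1877, 2995 and 1829 CPM at 2 months in WT, with an interaction of -2.20 ± 0.36 (adjusted p = 0.016). On the other side stood Tff3, at 5.26, Areg, at 4.73, and Atp2c2, a calcium pump of the secretory pathway, with 4.12, 3.65 and 2.12 CPM at 1 month and 16.3, 35.3 and 14.3 CPM at 2 months in PLD and an interaction of 4.24 ± 1.04 (edgeR adjusted p = 0.0414). Sprr2b was near 0 in PLD, with 0.286, 1.02 and 0.493 CPM at 1 month and 0, 0 and 0.0506 CPM at 2 months, and in WT went from at most 0.561 CPM at 1 month to 3.56 to 19.9 CPM at 2 months. It belongs to a family of close copies, and its fitted interaction of -9.60 depends on the prior count. Endothelial marker levels in WT were 7.78, 8.28 and 6.70 at 1 month and 8.39, 9.06 and 8.48 at 2 months (mean log2 CPM), higher at 2 months without overlap, where PLD was lower. The interaction was fitted with their level as a covariate as well, and edgeR then called 0 genes, with 1375 higher and 1099 lower at an unadjusted p under 0.05.

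**Figure D5:**
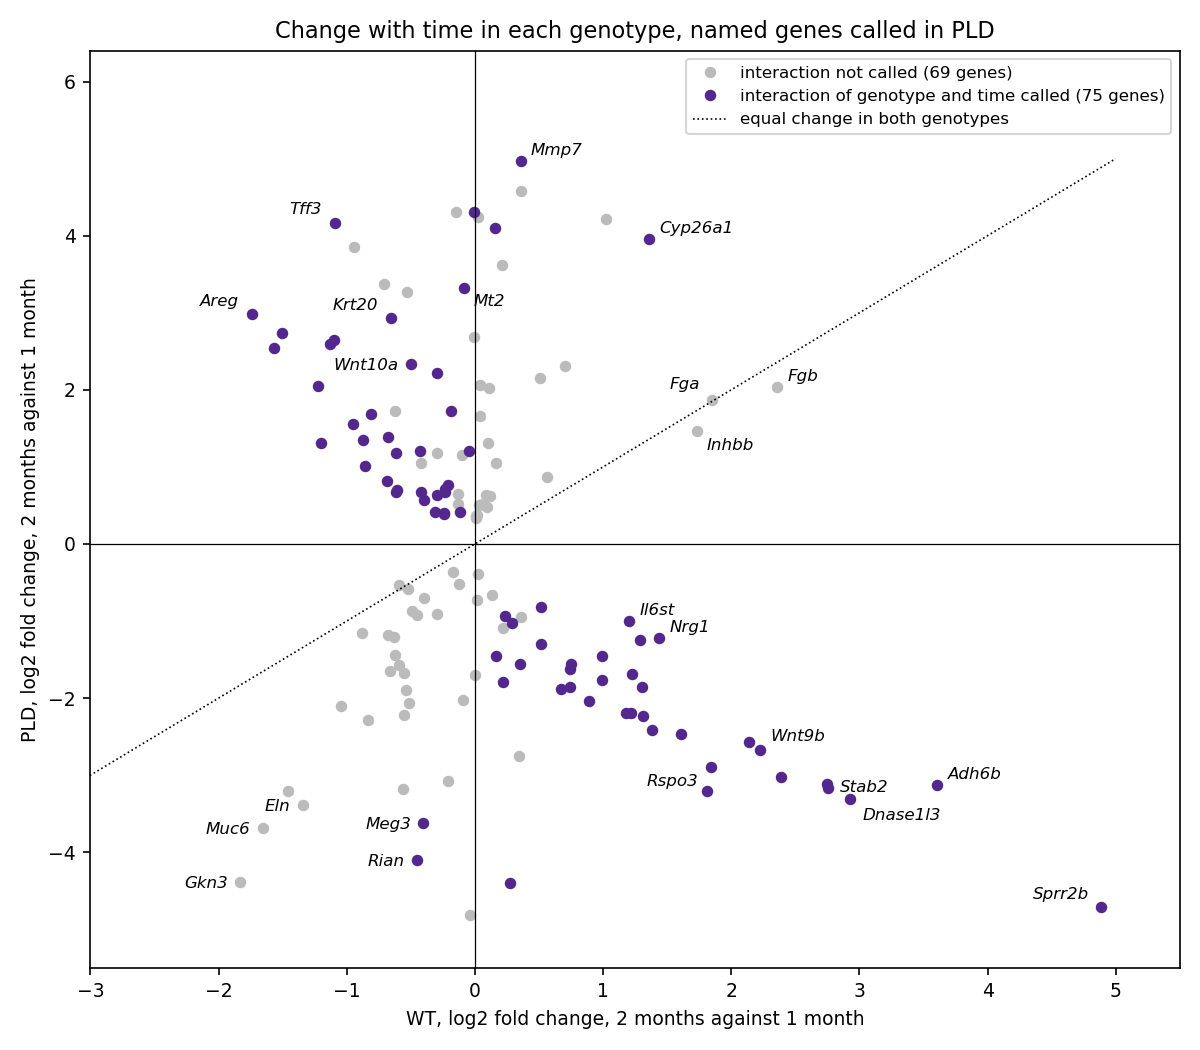
Log2 fold change from 1 to 2 months in WT (x axis) and PLD (y axis) for the 144 genes named by rule and called in PLD, with called interactions in purple and the line of equal change dotted. Vessel genes such as Stab2 and Rspo3 lie at lower right, Areg and Tff3 at upper left, and Fga and Fgb close to the line.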

How the data were processed

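RNA was sequenced from EpCAM-captured cholangiocytes, 3 libraries a group. Reads had been aligned with STAR 2.7.4a to mm10 and assigned to GENCODE vM25 genes with featureCounts 1.6.0, per the submitters' processing notes, and the authors deposited raw counts per gene, without strand, so that reads of overlapping or antisense genes cannot be told apart. Tests across genes used R 4.3.3 and edgeR 4.0.16 (filterByExpr, TMM factors, quasi-likelihood F-test, 1 mean for each of 4 groups, 12 untreated libraries, 8 residual degrees of freedom), with Benjamini-Hochberg adjustment over 17749 genes and a threshold of 0.05. Log2 CPM used a prior count of 2. Alternatives were DESeq2 1.42.0, limma-voom (limma 3.58.1), other scalings, filters and sets of libraries, a replicate block, marker covariates and each library left out. The scripts were tested on simulated data.

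Genes were named by rule: the 12 largest changes a direction among called genes without overlap and at least 10 CPM in the higher group; the 6 called genes of highest level a direction; up to 4 called members of a list, or 2 of highest level where none was called; the 6 largest interactions a direction; and 21 fixed genes. Some genes that the rule names are not reported here. Exceptions are stated, and Aqp1, Cftr, Egfr, Mt1, Scnn1b and Srebf2 were also chosen after their values were seen. The comparison and the 59 gene lists were chosen with earlier results of these data known.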

Additional observations from a re-analysis of the deposited data

Results flagged for a closer look

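The change from 1 to 2 months was called different between PLD and WT for 56 of the 118 genes named by rule and described. The test was the interaction of genotype and time (edgeR quasi-likelihood F-test, adjusted p from 0.00768 to 0.0486, n = 3 libraries a group). Of all 17749 genes tested, 1008 had a called interaction (5.68%). With the endothelial covariate edgeR called 0 interactions, with 1375 higher and 1099 lower at an unadjusted p under 0.05. Without WT replicate 2 at 2 months it called 33 higher and 67 lower. Some described genes were named for a large interaction or a large PLD change, so their share was raised by the choice. The values are the PLD log2 change minus the WT log2 change. They were positive for 30 genes. The largest were Tff3 5.26, Areg 4.73, Mmp7 4.61, Sult1d1 4.32, Atp2c2 4.24 and Myo1a 4.12. Next came Ppp2r2c 3.94, Fcgbp 3.75, Lgals4 3.72, Krt20 3.59, Mt2 3.41 and Gsta4 3.27. These were followed by Wnt10a 2.83, Cyp26a1 2.60, Upk1b 2.52, Elf3 2.51, Clcn2 2.50 and Gsto1 2.49. Further values were Msln 2.22, Slc39a4 2.06, Wnt4 1.91, Krt19 1.89, Hbegf 1.79 and Acaa1b 1.63. Then came Pfkfb3 1.51, Mgst3 1.30, Erbb2 1.25, Itgb4 1.09, Eci2 0.90 and Slc4a2 0.53.

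They were negative for 26 genes. Furthest below 0 were Sprr2b -9.60, Adh6b -6.73, Dnase1l3 -6.24, Clec4g -5.93, Stab2 -5.86 and F8 -5.02. Below 0 as well were Wnt9b -4.89, Rspo3 -4.74, Wnt2 -4.71, Bnc1 -4.67, Kdr -4.07 and Tek -3.79. After these stood Rian -3.65, Slc39a8 -3.41, Meg3 -3.22, Nrg1 -2.65, Gpm6a -2.60 and Pecam1 -2.55. Closer to 0 were Dpp4 -2.53, Nqo1 -2.35, Dhh -2.31, Il6st -2.20, Insig1 -2.00 and Stard4 -1.91. Closer still were Lama4 -1.62 and Sc5d -1.17.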

How the results depend on the processing

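The PLD comparison had 778 genes called higher and 928 lower, WT 2 and 7, and the interaction 453 and 555; each group of counts below keeps that order. DESeq2 gave 1684 and 1796, 399 and 429, and 1222 and 1123. Limma-voom gave 727 and 566, 10 and 14, and 323 and 412. Relative log expression factors gave 791 and 906, 1 and 7, and 457 and 553. Library totals alone gave 529 and 1181, 79 and 11, and 221 and 860. Without a filter on low counts the values were 1072 and 1746, 551 and 673, and 1095 and 1187, and with at least 1 CPM in 3 libraries 923 and 1022, 2 and 5, and 478 and 605. Only the libraries compared gave 1833 and 1978, and 0 and 0, and all 18 libraries gave 1154 and 1398, 79 and 56, and 739 and 822. The fibroblast covariate gave 950 and 1092, 332 and 305, and 631 and 680, and the endothelial covariate 116 and 110, 0 and 0, and 0 and 0. Where edgeR called 0 genes in WT, 968 were higher and 678 lower at an unadjusted p under 0.05 with only the WT libraries, and 841 and 1479 with the endothelial covariate. The cause of these shifts was not tested.

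Leaving out 1 library gave 62 to 1693 genes higher and 73 to 2069 lower in PLD, 0 to 70 and 0 to 319 in WT, and 33 to 721 and 67 to 736 for the interaction. Without WT replicate 3 at 1 month PLD had 1693 and 2069. Of the 144 called genes named by rule, 56 were called in none of the fits that left out 1 PLD library. PLD replicate 3 at 1 month and replicate 2 at 2 months left out together gave 0 and 0, 1 and 4, and 40 and 78, and WT replicate 3 at 1 month with replicate 1 at 2 months left out gave 1786 and 2075, 56 and 128, and 598 and 777; these 2 settings were chosen after seeing the data. A replicate block gave 455 and 582, 2 and 2, and 308 and 406. Deviations from group means had r across genes of -0.044, -0.086 and -0.035 between same-numbered PLD libraries, and from -0.027 to 0.081 between differently numbered ones. In WT the same numbers gave 0.08, 0.20 and 0.16, and different numbers -0.22 to 0.127. With means of 3 libraries these values cannot decide whether the numbers mark a pair or a shared batch.

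Over 4547 refits of the genes named by rule, 46 turned the direction, in 27 genes. With the endothelial covariate the log2 changes that turned were Adamts5 0.035, Alb -2.27, Col1a1 0.48, Cxcl12 0.89, Ep300 -0.15, Epas1 0.18, Epcam -0.84, Esr1 0.46, Hey1 0.088, Igfbp7 0.85, Itga2b 0.20, Kif23 -0.84, Krt7 -0.31, mt-Co1 0.17, Myc 0.24, Myoc 0.12, Pecam1 0.011, Pkd1 0.56, Pkd2 -0.036, Rbbp4 -0.24, Sec63 0.30, Slc39a4 -0.19, Sox9 -0.21 and Stab2 0.48. With the fibroblast covariate they were Alb -0.23, Col1a1 0.13, Ep300 -0.023, Epcam -0.091, Igfbp7 0.14, mt-Co1 0.010, Myc 0.030, Pkd1 0.10 and Rbbp4 -0.057. Rbbp4 turned with library totals (-0.017), no filter (-0.022) and all 18 libraries (-0.0073), and Igfbp3 without PLD replicate 3 at 1 month and replicate 2 at 2 months (-0.028). Where leaving out 1 library turned a direction, the values over all such fits ran for Lamp1 from -0.018 to 0.15, Igfbp3 from -0.34 to 0.50, Rbbp7 from -0.13 to 0.0097, mt-Co1 from -0.15 to 0.059, Myc from -0.20 to 0.0039 and Rbbp4 from -0.015 to 0.074. At 17048976 to 29277311 counts a PLD library, genes near 0 CPM, such as Bnc1, Fabp1 and Sprr2b, are the least precise.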
